A study of Mus musculus with 9 samples.

Results

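Mymx, Il4i1 and Grin1 are 3 genes of the 35896 that could be quantified in mouse embryonic stem cells treated with CK666, a drug that blocks the Arp2/3 complex, the cell's nucleator of branched actin networks. They were chosen by name from earlier results of these same libraries, Mymx and Il4i1 because they were raised and Grin1 because it was lowered by CK666. All 3 passed the filter on low counts that left 14648 genes for testing. The cells were E14, an established mouse embryonic stem cell line, and poly-A RNA was sequenced from 9 cultures in 3 groups of 3, with the replicates paired across groups. The control +LIF2i group stayed in self-renewal medium with the cytokine LIF, a MEK inhibitor and an inhibitor of glycogen synthase kinase 3 beta, together called LIF2i. The control -LIF2i group spent 72 h without these factors, and the CK666 -LIF2i group spent the same 72 h without them in 80 µM CK666, added from a DMSO stock with each daily change of medium. All groups shared the E14 line and a medium with serum. Whether the controls received DMSO is not stated in the sources used here, so effects of CK666 and of its solvent cannot be told apart.

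Mymx encodes myomixer, a very short membrane protein that works with myomaker (Mymk) to fuse myoblasts into muscle fibres. Il4i1 encodes a secreted oxidase of aromatic amino acids that is best known from leukocytes, where interleukin 4 induces it, and whose products can activate the aryl hydrocarbon receptor. Grin1 encodes GluN1, the subunit that every NMDA-type glutamate receptor of neurons needs, and the neuronal repressor REST is known to act on it. None of these proteins belongs to the actin nucleation machinery.

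The coding bases below show what was counted for each gene, as annotated in GENCODE M21 on the GRCm38 build and read 5′ to 3′ on the coding strand from the reference transcripts. Mymx lies at chr17:45600971-45602102 on the minus strand, and its coding stretch at chr17:45601420-45601671, printed without the stop codon and with the start codon in capitals, has 84 codons and is present whole in all 4 annotated transcripts. The transcript Mymx-202 is annotated with 24 further codons ahead of this stretch, which start at position 45601840, cross an intron and end beside the shared stretch at position 45601672. Il4i1 lies at chr7:44816387-44840809 on the plus strand, and its first 60 coding bases are shown for Il4i1-202, which held most of its counts, and for Il4i1-201, the only transcript that exceeded it in a library, with the first coding exon in capitals. That exon contributes 37 coding bases in Il4i1-202 and 13 in Il4i1-201, after which both continue with the same bases. Grin1 lies at chr2:25291181-25319187 on the minus strand, and its 63-base N-terminal cassette exon at chr2:25311343-25311405 and 111-base C-terminal cassette exon at chr2:25294438-25294548 are shown because they tell its full-length isoforms apart.
Mymx coding stretch: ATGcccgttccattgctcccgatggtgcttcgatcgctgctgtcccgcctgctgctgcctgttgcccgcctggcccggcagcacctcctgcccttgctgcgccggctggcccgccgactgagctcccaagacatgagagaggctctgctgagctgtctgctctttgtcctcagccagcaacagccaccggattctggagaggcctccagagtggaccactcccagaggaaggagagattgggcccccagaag
Mymx-202 extension: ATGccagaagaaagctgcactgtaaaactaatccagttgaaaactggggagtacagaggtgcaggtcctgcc
Il4i1-202 start: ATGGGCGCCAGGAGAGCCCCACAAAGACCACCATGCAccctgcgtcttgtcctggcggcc
Il4i1-201 start: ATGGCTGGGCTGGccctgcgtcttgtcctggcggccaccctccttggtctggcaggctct
Grin1 N-terminal cassette: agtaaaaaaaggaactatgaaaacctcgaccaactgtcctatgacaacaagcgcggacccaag
Grin1 C-terminal cassette: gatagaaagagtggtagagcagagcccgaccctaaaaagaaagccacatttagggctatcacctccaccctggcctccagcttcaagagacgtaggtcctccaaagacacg

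Each library held between 16894327 and 22550952 estimated counts. Levels are given in CPM, counts scaled to a common library size with edgeR's TMM correction, and the detection floor of 3 counts corresponded to 0.142 to 0.182 CPM. Markers of pluripotent cells were present in every library, with a summed level over 10 genes of 4703 to 7041 CPM in the control +LIF2i group, 2949 to 3279 CPM in the control -LIF2i group and 3200 to 3801 CPM in the CK666 group. Markers of fibroblasts were low and moved with the groups, with a summed level over 7 genes of 6.85 to 9.58 CPM, 30.2 to 33.7 CPM and 18.6 to 28.2 CPM in the same order. Of 6 tested, 4 rose on withdrawal, beside 21.1% of all tested genes. Lum was at or below 3 counts in all 9 libraries, and their part in the levels of the 3 genes was not tested. In such bulk samples fewer cells of a type and less RNA per cell cannot be told apart.

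The responses of the 3 genes were not limited to CK666, since all 3 also fell on withdrawal of LIF2i in the controls. That comparison is not independent of their choice, because it uses the same control -LIF2i libraries. Relative to the control -LIF2i group Mymx and Il4i1 were higher with CK666 whereas Grin1 was lower still. Mymx remained below its self-renewal level under CK666, while Il4i1 spanned that level. The plot of levels by library shows a valley for Mymx and Il4i1 and a downward staircase for Grin1.

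**Figure D1:**
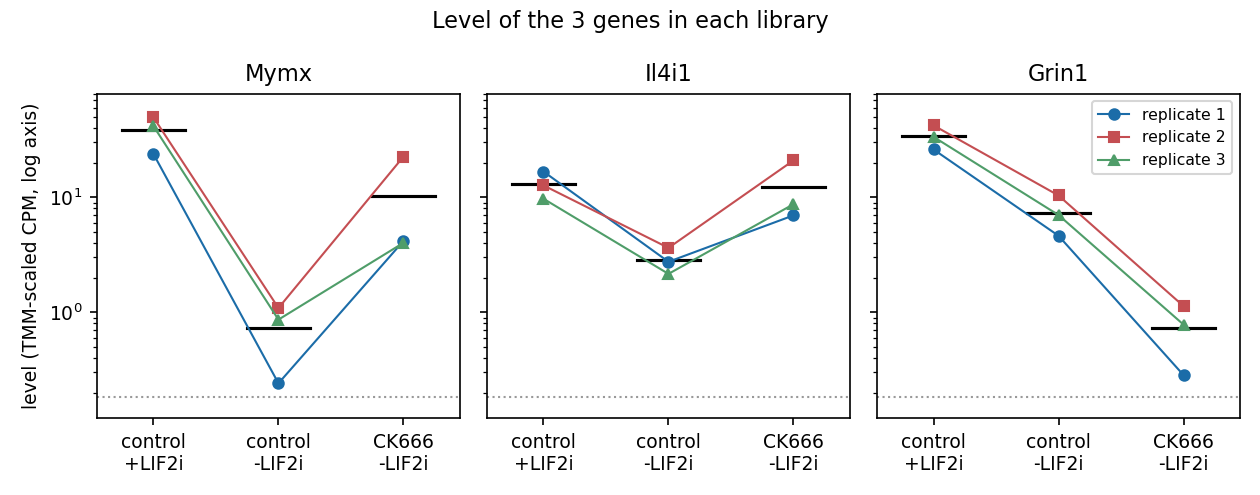
Level of Mymx, Il4i1 and Grin1 in TMM-scaled CPM on a log axis, in each of the 9 libraries. Coloured lines join the libraries of 1 replicate number, black dashes mark group means and the dotted line marks the highest detection floor of any library, 0.182 CPM. All 3 genes are lowest in the control -LIF2i or the CK666 group, and all 9 lines of the withdrawal step go down.

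Mymx was the gene with the widest range. In the control +LIF2i libraries its level was 23.8, 49.6 and 41.7 CPM in replicates 1, 2 and 3 (38.4 ± 13.2, mean ± SD, n = 3). In the control -LIF2i libraries it was 0.241, 1.09 and 0.864 CPM (0.732 ± 0.439, n = 3), which rests on 5, 21 and 16 counts. In the CK666 libraries it was 4.17, 22.6 and 4.02 CPM (10.3 ± 10.7, n = 3), from 88, 399 and 72 counts. The 3 groups did not overlap, and the order was control +LIF2i, then CK666, then control -LIF2i. Replicate 2 of the CK666 group stood above the other two CK666 libraries, and replicate 2 was also the highest in both control groups.

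On withdrawal Mymx fell by 5.86 on the log2 scale (SE 0.49, edgeR adjusted p = 3.61e-05), with the fall seen in 3 of 3 pairs. The level left in the control -LIF2i library was 1.01, 2.20 and 2.07% of that in its paired control +LIF2i library. With CK666 the level was 3.60 higher on the log2 scale than in the control -LIF2i group (SE 0.49), the contrast for which the gene was chosen, so this value is a description. The paired ratios were 17.3-fold, 20.7-fold and 4.66-fold. The log2 difference was 2.88 without CK666 replicate 2, 2.98 without all libraries of replicate 2 and 4.20 without all libraries of replicate 3.

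Against self-renewal, Mymx remained lower by -2.26 on the log2 scale in the CK666 group (SE 0.39, edgeR adjusted p = 0.0021, lower in 3 of 3 pairs). The CK666 libraries held 17.5, 45.5 and 9.65% of the paired control +LIF2i level. This difference lost its call without the replicate block, at -1.90 (edgeR adjusted p = 0.0829). It was -2.87 without CK666 replicate 2 and -2.93 without all of replicate 2, and -1.76 without CK666 replicate 3 and -1.81 without all of replicate 3. The comparison shares the CK666 libraries with the contrast that chose the gene, and withdrawal shares the control -LIF2i libraries with it.

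Il4i1 moved in the same directions as Mymx over a narrower range. Its level was 16.8, 12.7 and 9.72 CPM in the control +LIF2i libraries (13.1 ± 3.53, n = 3). It was 2.75, 3.63 and 2.16 CPM in the control -LIF2i libraries (2.85 ± 0.742, n = 3). It was 6.97, 20.9 and 8.71 CPM in the CK666 libraries (12.2 ± 7.62, n = 3). Every control -LIF2i library was below all 6 others, and the control +LIF2i and CK666 groups overlapped.

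On withdrawal Il4i1 fell by 2.24 on the log2 scale (SE 0.35, edgeR adjusted p = 0.000995, lower in 3 of 3 pairs). The CK666 group was 2.03 above the control -LIF2i group (SE 0.35), again a description, with paired ratios of 2.53-fold, 5.77-fold and 4.04-fold. Against self-renewal the difference was -0.21 on the log2 scale (SE 0.33, edgeR adjusted p = 0.648), and the CK666 libraries held 41.6, 165 and 89.6% of the paired control +LIF2i level. Its sign rested on replicate 1: the difference was 0.31 without all libraries of replicate 1, 0.20 without CK666 replicate 1 and 0.18 without control +LIF2i replicate 1. No difference was detectable here, and a p above the threshold does not show that the levels were equal.

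Grin1 fell at each step. Its level was 26.1, 42.2 and 33.6 CPM in the control +LIF2i libraries (34.0 ± 8.08, n = 3). It was 4.63, 10.4 and 7.02 CPM in the control -LIF2i libraries (7.34 ± 2.89, n = 3). It was 0.284, 1.13 and 0.782 CPM in the CK666 libraries (0.733 ± 0.426, n = 3), from 6, 20 and 14 counts, so each of these values carries a large counting error. The groups did not overlap, and in each group replicate 1 was the lowest and replicate 2 the highest.

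On withdrawal Grin1 fell by 2.26 on the log2 scale (SE 0.22, edgeR adjusted p = 6.49e-05, lower in 3 of 3 pairs). The paired control -LIF2i libraries kept 17.8, 24.6 and 20.9% of the control +LIF2i level. With CK666 the level was lower by -3.35 on the log2 scale than in the control -LIF2i group (SE 0.27), the contrast that chose the gene, and the paired libraries kept 6.14, 10.9 and 11.1%. This difference was -2.75 with an effective length offset, -2.39 on log2(TPM + 0.1) and -1.37 on log2(TPM + 1). Against self-renewal the CK666 group was lower by -5.61 (SE 0.27, edgeR adjusted p = 3.89e-06, lower in 3 of 3 pairs). On the log2(TPM + 1) scale, which understates the change of low genes, this difference was -3.23, and on log2(TPM + 0.1) it was -4.56. With an effective length offset in edgeR it was -4.97. The CK666 libraries held 1.09, 2.68 and 2.33% of the paired control +LIF2i level.

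Set against all genes tested, 3 of the 3 genes were called lowered on withdrawal at an adjusted p under 0.05, where 19.7% of the 14648 tested genes were lowered, 21.1% were raised and 40.7% were called in either direction. Against self-renewal, 2 of the 3 were called lowered in the CK666 group, where 17.1% of the tested genes were lowered, 19.8% raised and 36.9% called in all. For CK666 against the control -LIF2i group, 2.05% of the tested genes were called, 1.15% raised and 0.894% lowered, and the 3 genes are called there by choice. By size of log2 fold change Mymx ranked 2 and Il4i1 ranked 8 of 169 genes called raised, and Grin1 ranked 2 of 131 called lowered. Among all tested genes of the same direction, called or not, they ranked 11 and 51 of 7580 and 18 of 7068. These ranks describe the contrast that chose the genes. All 3 CK666 calls need the pairing: without the replicate block edgeR called 0 genes for CK666, with 1251 genes at an unadjusted p under 0.05. They also depend on single libraries. With 1 of the 9 libraries left out, Grin1 was called in 9 of 9 fits, Mymx in 6 and Il4i1 in 3. Without CK666 replicate 2 or control -LIF2i replicate 2 no gene was called raised (edgeR, 1617 and 1856 genes at an unadjusted p under 0.05 in either direction), and without control -LIF2i replicate 3 Mymx and Il4i1 also lost their calls. Il4i1 lost its call as well without control +LIF2i replicate 3, control -LIF2i replicate 1 or CK666 replicate 3. Without all 3 libraries of replicate 3 none of the 3 genes was called, and without those of replicate 2 only Grin1 was. In the CK666 comparison 19.7% of all tested genes reached an unadjusted p under 0.05 with edgeR, and DESeq2 called 7.78% (3.99% raised and 3.8% lowered).

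**Figure D2:**
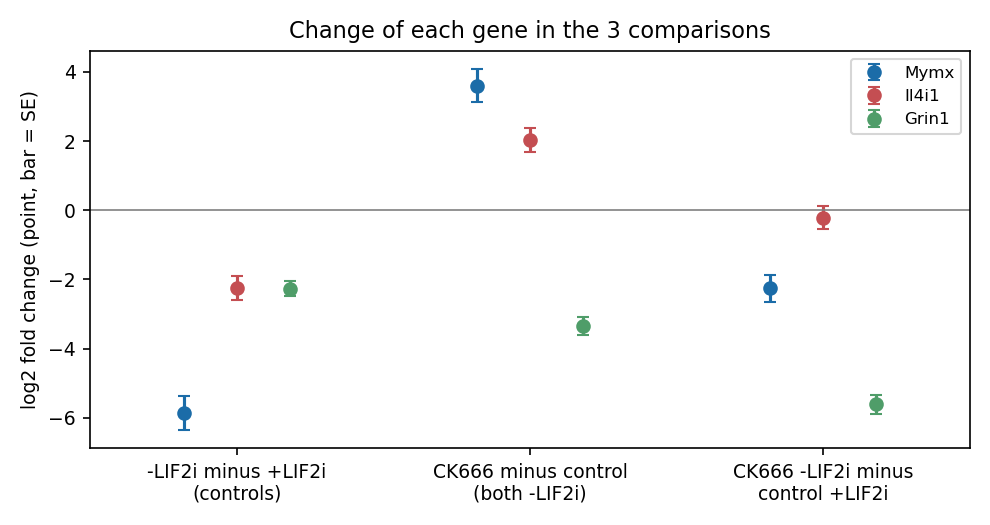
log2 fold change of Mymx, Il4i1 and Grin1 in each of the 3 comparisons, with bars of 1 SE from the edgeR fit over 9 libraries. Points below 0 are lower in the first-named group. Mymx and Il4i1 change sign between withdrawal (-5.86 and -2.24) and CK666 (3.60 and 2.03), whereas Grin1 is negative in both (-2.26 and -3.35); the comparisons share libraries.

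On the TPM scale, which divides by transcript length and allows genes to be compared, Mymx was the most abundant of the 3 messages during self-renewal. Its level was 121 ± 28.6 TPM there, 2.77 ± 1.19 TPM in the control -LIF2i group and 32.6 ± 30.6 TPM in the CK666 group (n = 3 each). Grin1 had 12.6 ± 1.09, 2.84 ± 1.06 and 0.449 ± 0.130 TPM in the same order. Il4i1 had 10.6 ± 2.94, 2.18 ± 0.583 and 9.00 ± 5.20 TPM. In the control -LIF2i group the ranges of the 3 genes overlapped per length, and in the CK666 group Mymx and Il4i1 were both above Grin1 in every library.

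The transcripts behind these sums differed in how surely they can be assigned. Mymx shares no exonic base with another annotated gene, and every 31-base window of its 4 transcripts occurs in no other gene among the transcripts in the deposited tables. Most of its counts fell on Mymx-202 and Mymx-203, which together took 87.8 to 98.7% in the control +LIF2i and CK666 libraries. Mymx-203 held 285 to 548 estimated counts in the control +LIF2i libraries, 0 to 13.9 in the control -LIF2i libraries and 33.4 to 250 in the CK666 libraries. Mymx-202, with its added codons, held 194 to 308, then 1.51 to 6.45, then 15.4 to 121. Both therefore followed the gene, with no overlap between the 3 groups in either.

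Il4i1 is the least certain of the 3. Of its 4080 exonic bases, 86.3% also belong to another annotated gene. Tbc1d17, which encodes a Rab GTPase-activating protein and lies on the opposite strand, covers 3423 of them through the long 3′ part of 1 transcript, Tbc1d17-201. Nup62, which encodes a nuclear pore protein on the same strand, shares 97 bases, and Atf5, which encodes a stress-responsive transcription factor on the opposite strand, shares 82. The library kit did not mark strand as far as the labels describe it, so reads from these stretches cannot be told apart by strand. Only 372 of the 2245 windows of 31 bases in Il4i1-202 (16.6%) occur in no other gene of those tables.

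Il4i1-202, whose first exon is shared with Nup62 and Atf5, took 86.4 to 100% of the Il4i1 counts in the control +LIF2i libraries and 95.9 to 98.1% in the CK666 libraries. It took 46.6 to 96.6% in the control -LIF2i libraries, where replicate 1 had 30.2 counts on Il4i1-201 instead. In counts, Il4i1-202 held 148 to 341, then 26.4 to 67.2, then 144 to 355. The overlapping transcript Tbc1d17-201 held 46.8 to 119 counts in the control +LIF2i group, 46.2 to 105 in the control -LIF2i group and 101 to 142 in the CK666 group. With its counts added to those of Il4i1, an alternative chosen after seeing the data, the sum fell by 1.40 on withdrawal (SE 0.24, edgeR adjusted p = 0.00162) and was 1.47 higher with CK666 (SE 0.24). Adding counts that change less makes a difference smaller by construction, so how many of its reads were assigned to Il4i1 was not tested.

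Summed over all transcripts of a gene, no gene that overlaps Il4i1 was called lowered on withdrawal. These sums include bases that Il4i1 does not share. Tbc1d17 was at 33.9 to 38.5 CPM in the control +LIF2i libraries, 58.1 to 67.1 CPM in the control -LIF2i libraries and 70.4 to 78.0 CPM in the CK666 libraries. Summed over all its transcripts, Tbc1d17 rose on withdrawal by 0.81 on the log2 scale (SE 0.11, edgeR adjusted p = 0.00045). It differed by 0.25 with CK666 (edgeR adjusted p = 0.248). Its transcript with the most counts, Tbc1d17-206, shares no base with Il4i1. That transcript held 330 to 580, 685 to 962 and 763 to 1004 counts in the 3 groups in order. The overlapping Tbc1d17-201 spanned similar counts in both control groups. From control -LIF2i to CK666 it went from 77.2 to 135, 105 to 142 and 46.2 to 101 counts in replicates 1, 2 and 3. Nup62 stayed between 186 and 259 CPM in all 9 libraries, with a log2 difference of 0.12 for CK666 (edgeR adjusted p = 0.639). Atf5 was at 9.71 to 21.8 CPM in the control -LIF2i libraries and 22.7 to 51.5 CPM in the CK666 libraries. Its log2 difference of 1.36 (SE 0.36, edgeR adjusted p = 0.0846) did not pass, although the groups did not overlap, and DESeq2 called it raised.

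**Figure D3:**
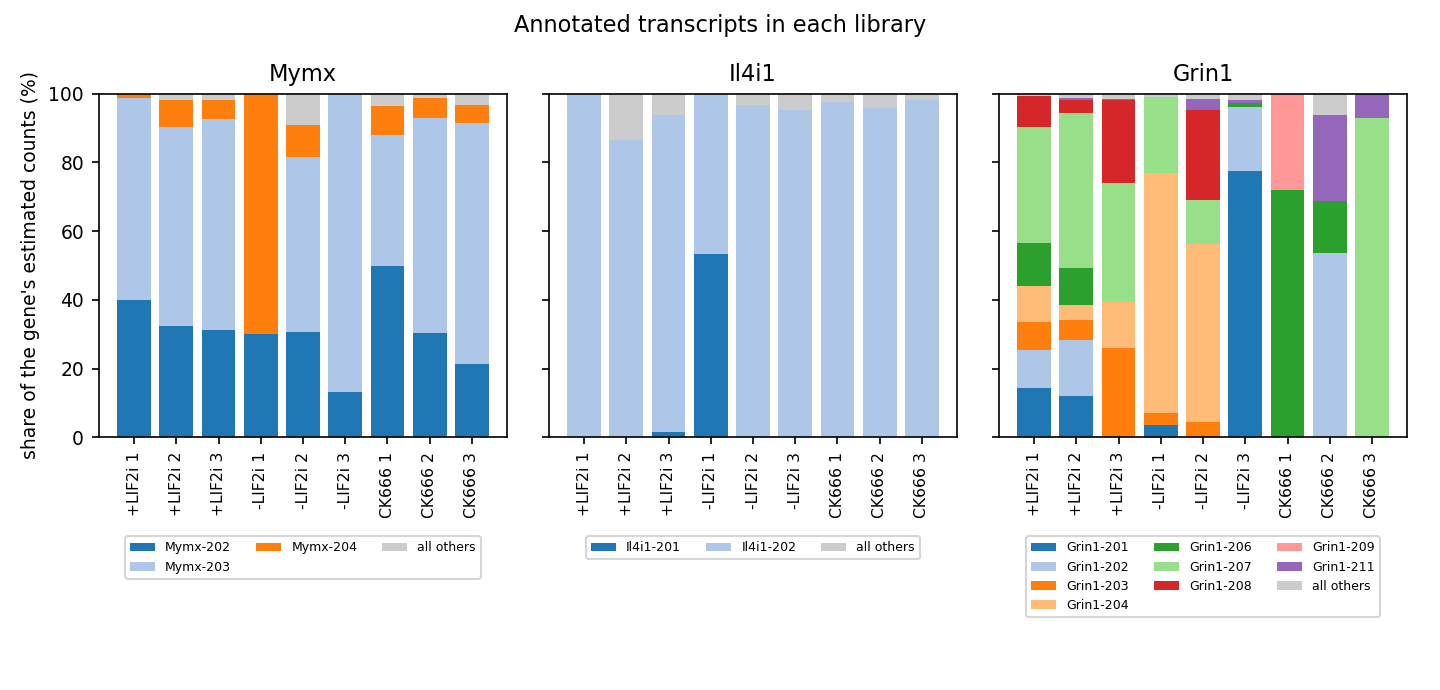
Share of each gene's estimated counts (percent) assigned to its annotated transcripts in each of the 9 libraries; transcripts that never exceed 20% are pooled in grey. Il4i1-202 dominates 8 libraries, the Mymx shares vary most in the control -LIF2i group, where the gene has 5 to 21 counts, and those of Grin1 vary between libraries of 1 group.

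Grin1 shares 1307 of its 9700 exonic bases (13.5%) with an antisense gene, Grin1os. No transcript analysed here was assigned to Grin1os, so its reads had no transcript of their own and its level could not be given. Each of the 8 full-length isoforms holds these bases, 30.6 to 34.3% of its length, and reads from Grin1os over them could be counted in Grin1. The full-length coding isoforms, which differ in the printed cassettes and in the last exon, held most of its counts. Their sum was 527, 792 and 543 in the control +LIF2i libraries, 95.0, 191 and 126 in the control -LIF2i libraries and 4.31, 13.7 and 13.0 in the CK666 libraries. The 4 transcripts that share no base with Grin1os are annotated as non-coding and were too low to be tested. Their summed counts were 4.22, 15.8 and 9.67, then 1, 9.46 and 3.56, then 0, 6 and 1 in the 3 groups in order, ranges that overlapped.

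The split of Grin1 between isoforms was unstable. Isoforms with the N-terminal cassette took 61.6, 60.4 and 100% of the full-length counts in the control +LIF2i libraries. They took 96.3, 100 and 0.00061% in the control -LIF2i libraries, so that replicates of the same group stood at opposite ends. Isoforms with the C-terminal cassette took 46.6, 31.2 and 38.3% in the control +LIF2i libraries and 74.1, 81.9 and 80.9% in the control -LIF2i libraries, 2 ranges that did not overlap. In the CK666 libraries they took 100, 22.0 and 0%, over 4.31 to 13.7 counts, and no share can be read at that depth.

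**Figure D4:**
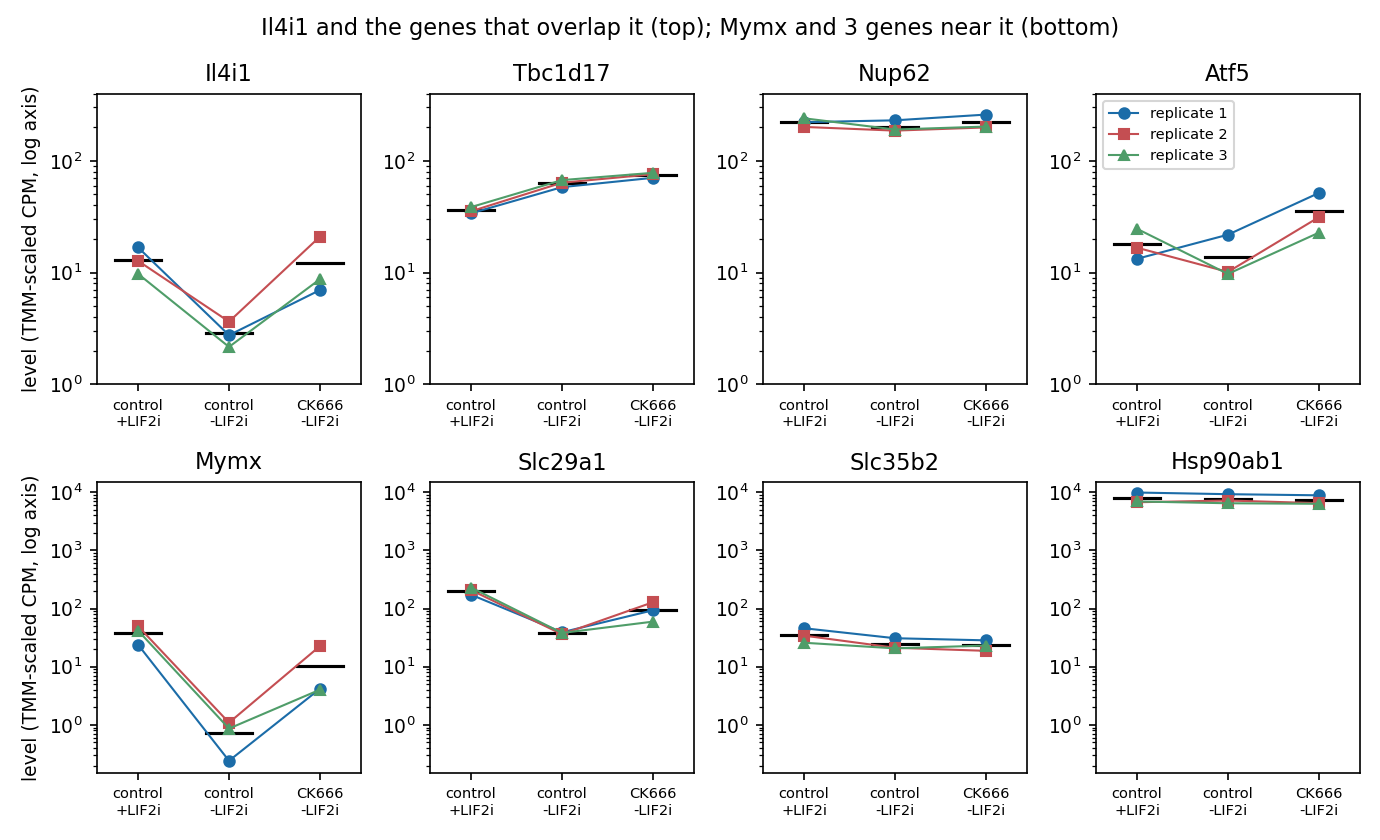
Level in TMM-scaled CPM on log axes, in each library, of Il4i1 with the 3 genes that share its exonic bases (top row) and of Mymx with 3 genes within 50 kb (bottom row); lines join replicate numbers and dashes mark group means. Tbc1d17 goes up where Il4i1 goes down, and Slc29a1 follows the valley of Mymx at a higher level.

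Around Mymx, 5 genes within 50 kb were tested, of which 3 were lowered on withdrawal (19.7% of all tested genes) and 1 was raised by CK666 (1.15% of all). With so few genes these counts describe the neighbourhood only. The gene raised by CK666 was Slc29a1, which encodes the nucleoside transporter ENT1 and lies 1365 bases from Mymx. Its level was 173, 208 and 229 CPM in the control +LIF2i libraries, 39.1, 36.2 and 38.0 CPM in the control -LIF2i libraries and 93.3, 128 and 59.5 CPM in the CK666 libraries. It was lowered on withdrawal by -2.43 (SE 0.24, edgeR adjusted p = 7.37e-05) and raised with CK666 by 1.27 (SE 0.23, edgeR adjusted p = 0.033). The 3 groups did not overlap and stood in the same order as those of Mymx.

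Capn11, a calpain protease gene 28102 bases from Mymx, was at 0.491 to 1.41 CPM in the control +LIF2i libraries, at or below the floor of 3 counts in all control -LIF2i libraries and at 0.279 to 0.793 CPM in the CK666 libraries. It was called lowered on withdrawal (edgeR adjusted p = 0.00417), and its difference for CK666 did not pass (edgeR adjusted p = 0.0854). Slc35b2, a transporter gene of the Golgi, fell on withdrawal by 0.54 (edgeR adjusted p = 0.0251), and its log2 difference for CK666 was -0.039 (edgeR adjusted p = 0.927). Hsp90ab1, which encodes a cytosolic chaperone, and Nfkbie, which encodes an inhibitor of NF-kappa-B, were called in none of the 3 comparisons.

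Near Il4i1, 8 genes were tested, including the 3 that overlap it. Of all tested genes 40.7% were called on withdrawal. On withdrawal 3 rose, Tbc1d17, Akt1s1 (0.95, edgeR adjusted p = 0.00339) and Ptov1 (0.63, edgeR adjusted p = 0.00149), and none fell. Near Grin1, 11 genes were tested, of which Uap1l1 rose (0.75, edgeR adjusted p = 0.0403) and Tprn fell (-0.87, edgeR adjusted p = 0.0192) on withdrawal. For CK666, edgeR called 0 of these 8 and 0 of these 11 genes, with 2 and 3 at an unadjusted p under 0.05, beside 19.7% of all tested genes. DESeq2 called 1 (Atf5) and 0, beside 7.78% of all. Anapc2, a cell cycle ubiquitin ligase gene and the nearest tested gene at 5266 bases from Grin1, was at 102 to 173 CPM over the 9 libraries.

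Of 11 tested genes of a myoblast fusion list other than Mymx, 2 rose and 4 fell on withdrawal (54.5% called, beside 40.7% of all tested genes). For CK666 edgeR called 0 (2.05% of all), with 3 at an unadjusted p under 0.05 (19.7% of all), and DESeq2 called the receptor genes Boc and Neo1 raised (3.99% of all). The median log2 difference of the 11 was 0.65 there, beside 0.017 over all tested genes. Against self-renewal 3 were higher and 2 lower in the CK666 group, where 19.8% of all tested genes were raised and 17.1% lowered. Mymk, the partner of myomixer, was at or below 3 counts in all 9 libraries. Jam2, an adhesion molecule, fell from 323 ± 75.9 CPM to 2.89 ± 1.60 CPM on withdrawal (-6.90, edgeR adjusted p = 4.77e-05) and was at 5.27 ± 2.72 CPM with CK666. Cdh15, the muscle cadherin, rose on withdrawal by 1.72 (edgeR adjusted p = 0.0141), and Adgrb1, a receptor for apoptotic cells, fell by -1.36 (edgeR adjusted p = 0.00059).

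Muscle regulators and markers gave no call for CK666, where 2.05% of all tested genes were called. Of 6 tested myogenic regulators, 3 rose on withdrawal, where 21.1% of all tested genes rose. For CK666 edgeR and DESeq2 both called 0 of these and 0 of 5 tested skeletal muscle markers, with 0 at an unadjusted p under 0.05. The median log2 differences of the 2 lists were -0.20 and -0.67, beside 0.017 over all tested genes. Myod1, the myoblast master regulator, had 0 counts in all control +LIF2i libraries, 0.363 to 0.772 CPM in the control -LIF2i libraries and 0.226 to 0.758 CPM in the CK666 libraries. Of the 5 markers, 2 rose and 1 fell on withdrawal. Their list of 11 had a summed level of 26.9 to 35.2 CPM, 33.7 to 61.8 CPM and 35.8 to 44.6 CPM in the 3 groups in order, and Myh8, Myl1 and Tnnt3 were at or below 3 counts in every library.

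Of 6 other tested genes of aromatic amino acid catabolism and amine oxidation, 3 rose and 2 fell on withdrawal (83.3% called, beside 40.7% of all tested genes). For CK666 edgeR and DESeq2 called 0, with 3 at an unadjusted p under 0.05, beside 19.7% of all. Kyat3, a kynurenine aminotransferase, was at 13.8 ± 5.12 CPM, 6.73 ± 2.58 CPM and 11.1 ± 3.15 CPM in the 3 groups in order. It fell by -1.04 on withdrawal (edgeR adjusted p = 0.00932), and its CK666 difference of 0.76 did not pass (edgeR adjusted p = 0.138). Maob, a monoamine oxidase, rose on withdrawal by 2.92 (edgeR adjusted p = 0.0124).

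In the aryl hydrocarbon receptor pathway, 3 of 7 tested genes rose and 2 fell on withdrawal (71.4% called, beside 40.7% of all tested genes). With CK666 edgeR called 1 raised (1.15% of all), and DESeq2 called 3 (7.78% of all). An unadjusted p under 0.05 was reached by 4 of the 7 with edgeR, beside 19.7% of all. The median log2 difference of the 7 was -0.33, beside 0.017 over all tested genes. Ahr, the receptor, was at 4.23, 8.26 and 6.38 CPM in the control +LIF2i libraries, 27.5, 26.0 and 31.3 CPM in the control -LIF2i libraries and 14.4, 16.3 and 15.4 CPM in the CK666 libraries. It rose on withdrawal by 2.20 (SE 0.22, edgeR adjusted p = 8.35e-05), and its CK666 difference of -0.89 (SE 0.21, edgeR adjusted p = 0.0615) did not pass, although the groups did not overlap and DESeq2 called it lowered. The target gene Cyp1b1 stood at 2.18 to 3.02 CPM in the control -LIF2i libraries and 0.391 to 1.23 CPM in the CK666 libraries, a difference that edgeR did not call (adjusted p = 0.121) and DESeq2 called lowered. The gene raised by CK666 was Arnt, the dimerisation partner of Ahr, at 0.77 (SE 0.13, edgeR adjusted p = 0.0297), named after its values were seen.

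Of 5 tested genes of interleukin 4 signalling, 1 fell on withdrawal, Il2rg, the common gamma chain (edgeR adjusted p = 0.00854), where 40.7% of all tested genes were called. For CK666, where edgeR called 2.05% and DESeq2 7.78% of all tested genes, both called 0 of the 5. An unadjusted p under 0.05 was reached by 0, beside 19.7% of all. Leukocyte markers had a summed level over 9 genes of 13.6 to 42.0 CPM, 7.04 to 14.6 CPM and 6.82 to 21.6 CPM in the 3 groups in order. Of 5 tested, 3 fell and 0 rose on withdrawal, where 19.7% of all tested genes fell and 21.1% rose. Their median log2 difference was -1.45, the direction in which Il4i1 moved, beside 0.0062 over all tested genes. For CK666 edgeR called 0 of the 5 and DESeq2 0 (2.05% and 7.78% of all), with 0 at an unadjusted p under 0.05 (19.7% of all). Adgre1 and Itgax were at or below 3 counts in all 9 libraries. Il4i1 itself had 2.16 to 20.9 CPM in these libraries, and the part of leukocyte markers in its level was not tested.

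Of 4 other tested subunits of the NMDA receptor, 2 were called on withdrawal (50%, beside 40.7% of all tested genes). Grin2d rose by 0.94 (edgeR adjusted p = 0.0352) and Grin2c fell by -2.35 (edgeR adjusted p = 0.00377). For CK666 edgeR and DESeq2 called 0 (2.05% and 7.78% of all), with 0 at an unadjusted p under 0.05 (19.7% of all). The median log2 difference of the 4 subunits was 0.83 there, beside 0.017 over all tested genes. Grin2d was at 3.11 ± 0.498, 6.05 ± 0.794 and 7.79 ± 2.79 CPM in the 3 groups in order. Grin2a, at 0.443 ± 0.385, 0.823 ± 0.402 and 2.01 ± 1.12 CPM, was higher in the CK666 group than in self-renewal by 2.29 (edgeR adjusted p = 0.0155), where Grin1 was lower. Grin3a and Grin3b were too low to be tested.

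Receptors and scaffolds of the glutamatergic synapse also moved both ways on withdrawal. Of 5 tested AMPA and kainate receptor subunits, 3 rose and 2 fell, and of 13 postsynaptic scaffold and kinase genes, 7 rose and 2 fell, where 21.1% of all tested genes rose and 19.7% fell. Their median log2 differences were 1.71 and 0.72, beside 0.0062 over all genes tested. Dlg4, which encodes the scaffold PSD-95, rose by 2.20 (edgeR adjusted p = 2.92e-05), and Gria3, an AMPA receptor subunit, by 2.07 (edgeR adjusted p = 0.000853). For CK666 edgeR and DESeq2 called 0 of these genes (2.05% and 7.78% of all), with Dlg1 and Dlg4 at an unadjusted p under 0.05 (19.7% of all), and their medians were 0.069 and 0.082, beside 0.017 over all genes.

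Rest, the repressor that acts on Grin1, was itself at 574 ± 92.3, 312 ± 15.4 and 354 ± 46.3 CPM in the 3 groups in order. It fell on withdrawal by -0.87 (edgeR adjusted p = 0.00121), and its CK666 difference was 0.17 (edgeR adjusted p = 0.549). Of 8 tested neuronal REST targets, 2 rose and 1 fell on withdrawal (37.5% called), a share near the 40.7% of all tested genes. For CK666 edgeR and DESeq2 called 0 of the 8 (2.05% and 7.78% of all), with 0 at an unadjusted p under 0.05 (19.7% of all). Syp, a synaptic vesicle gene, rose by 3.55 (edgeR adjusted p = 6.92e-05), and Stmn2, a microtubule regulator, fell by -1.67 (edgeR adjusted p = 3.36e-05). The summed level of 9 neuron markers was 305 to 379 CPM, 143 to 176 CPM and 129 to 163 CPM in the 3 groups in order. Of 8 tested, 4 rose and 3 fell on withdrawal, where 21.1% of all tested genes rose and 19.7% fell. Their median log2 difference was 1.45, beside 0.0062 over all tested genes, so the sum and most called markers moved in opposite directions. Their part in the level of Grin1 was not tested.

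The genes most like each member were ranked by the correlation of log2 CPM over the 9 libraries among 12106 genes, a description over libraries that share their groups and pairs. For Mymx they were Gdf15, a stress-induced cytokine (r = 0.992), Mpc1, a mitochondrial pyruvate carrier subunit (r = 0.985), and Triml2 (r = 0.971). Gdf15 was at 13.8, 22.0 and 19.3 CPM in the control +LIF2i libraries, 2.03, 4.41 and 2.91 CPM in the control -LIF2i libraries and 5.73, 16.4 and 6.26 CPM in the CK666 libraries. Like Mymx it was highest in replicate 2 of every group. For Il4i1 they were Prrc2b (r = 0.962), Bmi1, a Polycomb subunit (r = 0.960), and Clpp, a mitochondrial protease (r = 0.958). For Grin1 they were the kinase gene Map2k1 (r = 0.975), Ndrg1 (r = 0.968) and Gtf2b, a general transcription factor (r = 0.968).

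Ndrg1, a stress-responsive gene, showed the same downward steps as Grin1, at 76.9, 133 and 123 CPM in the control +LIF2i libraries, 35.3, 24.5 and 40.3 CPM in the control -LIF2i libraries and 5.54, 13.0 and 11.8 CPM in the CK666 libraries. Its difference for CK666 was -1.80 (edgeR adjusted p = 0.0261) and for withdrawal -1.67 (edgeR adjusted p = 0.0012). Ndrg1 was picked for its likeness to Grin1 over these same libraries, so both values are a description and no independent test. Among the 3 members themselves, r was 0.89 between Mymx and Il4i1, 0.35 between Mymx and Grin1 and 0.052 between Il4i1 and Grin1, over the same 9 libraries.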

How the data were processed

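The authors deposited 1 table per library with 119414 Ensembl transcripts and, per the file headers, estimated counts, TPM and effective lengths. The submitters' processing notes name FastQC, cutadapt 1.8.1, kallisto and sleuth, and the builds GRCh38 and mm10 without a role; no transcript release is given in the sources used here. Transcripts were assigned to genes by identifier with GENCODE M21 (116640, or 97.7%); the other 2774 held 0.895 to 1.08% of a library's counts and were left out. Estimated counts were summed per gene, rounded to whole numbers and tested with edgeR 4.0.16 (R 4.3.3): robust quasi-likelihood, TMM, edgeR's expression filter, 9 libraries, group plus replicate number, 4 residual degrees of freedom, Benjamini-Hochberg over 14648 genes at 0.05. SEs derive from the test statistic.

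The series' design text calls the replicates paired. Same-numbered libraries deviated together across groups (median r 0.41, 0.30 to 0.65, 9 pairs), beside a median r of -0.37 for other pairs. Among those, r was 0.21 to 0.29 between replicates 2 and 3 and -0.53 to -0.35 between replicate 1 and either. Deviations cancel within a group, which by construction lowers r for other pairs. The floor of 3 counts covers counting error only; SEs and p-values measure the spread between these cultures. DESeq2 1.42.0 and limma 3.58.1 on log2 TPM served as alternatives, with other scalings, filters and left-out libraries. Tests were checked on simulated data.

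The 3 genes and all gene lists were chosen with earlier results of these data known. Genes named are the 3, genes overlapping them, expressed genes within 50 kb, up to 4 called genes per list by size of change, and the 3 protein-coding genes most correlated with each (mean log2 CPM of at least 1, prior count 2). Outside this rule, genes too low to be tested, Arnt, Neo1 and Dlg1 were named after their values were seen. One gene of these lists is not reported here.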

Additional observations from a re-analysis of the deposited data

How the results depend on the processing

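The fits without the replicate block called 3509 genes for withdrawal (5967 with it), 0 for CK666 (300 with it) and 2966 for CK666 against self-renewal (5408 with it), and moved Mymx in the last to -1.90 (edgeR adjusted p = 0.0829); without it the 3 genes also lost their CK666 calls, and kept their withdrawal calls. For CK666, DESeq2 called 1140 genes, no filter on low counts 565, the 6 libraries of the comparison alone 1367 and an effective length offset 148. Leaving out libraries gave 0 to 1811 for CK666 (1811 without replicate 1, 8 without replicate 2, 0 without replicate 3, 1657 without control +LIF2i replicate 1, 120 without its replicate 3, 152, 5 and 4 without control -LIF2i replicates 1, 2 and 3, 2 and 30 without CK666 replicates 2 and 3), 3099 to 6588 for withdrawal and 2413 to 6129 for CK666 against self-renewal. The CK666 difference of Grin1 was -2.75 with an effective length offset, -2.39 on log2(TPM + 0.1) and -1.37 on log2(TPM + 1), against -3.35; the cause was not tested. The difference of Il4i1 between CK666 and self-renewal was 0.072 when summed with Tbc1d17-201 and ran from -0.73 to 0.31 without single libraries or replicate numbers. On withdrawal the 3 genes kept their direction and call in every alternative run, from -6.30 to -5.03 for Mymx, -2.55 to -1.40 for Il4i1 and -2.40 to -1.86 for Grin1. Counting only transcripts without shared exonic bases gave no value for Il4i1, which has none, or for Grin1, whose 4 were too low. With 6 to 20 counts per CK666 library, depth limits the values and isoform shares of Grin1.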
